A study of Bos taurus with 13 samples.

Results

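Lactating bovine mammary gland was set against the gland of prepubertal heifers on 2 of the 13 two-colour hybridisations of the series. These 2 were taken by their titles. Array 1 compared total RNA of lactating mammary gland with gland RNA of a Holstein heifer of 136 kg, and array 2 compared lactating gland with the gland of a Holstein heifer of 227 kg. Each array carried 3888 spots of bovine mammary cDNA clones, and the deposited value is 1 log ratio per spot. The comparison arrays were a pair that hybridised RNA of a reference cell line, BovMac, against itself (the label of the first spells it BovMav), 1 array of prepubertal gland (136 kg heifer) against BovMac, and 1 array of prepubertal (136 kg) against postpubertal gland (310 kg heifer). The labels give no age or breed for the lactating animals and do not say whether the lactating arrays shared 1 RNA or came from separate animals, so the p-values measure only the spread between these arrays. For array 2 a keyword says post-pubertal, whereas title and channel name a prepubertal heifer, as is used here.

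Neither the base of the logarithm nor the dyes are given in the sources used here. The positive side of the ratio is called the lactation side because CSN1S1, the major casein of cow's milk, lay there, and it is likely, not certain, that it marks more RNA in lactating gland. Lactating RNA was in the same channel of both arrays, so a dye preference of a clone need not cancel. An exact 0 was treated as missing, each array was centred on its median, and spots were averaged for each gene with at least 2 values. Of 706 genes on the array, 697 had a value on both arrays and 9 did not. A gene is said to have passed where limma, fitted to the 2 arrays across all 697 genes, gave a Benjamini-Hochberg adjusted p of at most 0.05.

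The prepubertal gland is a small ductal tree in a pad of fat and connective tissue, whereas the lactating gland is filled with alveoli. Alveolar epithelium makes caseins and whey proteins in the endoplasmic reticulum, passes them through the Golgi, where lactose is made and proteins are glycosylated, and releases them by exocytosis. In ruminants the milk fat is built largely from acetate and from fatty acids taken up from blood, and it leaves the cell wrapped in membrane. In whole tissue of this kind, fewer cells of a type and less RNA per cell cannot be told apart.

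The tissue labels could be checked with few markers. Both markers of secretory epithelium were measured, and both passed on the lactation side. CSN1S1 was read on 18 spots per array and had values of 1.61 on array 1 and 2.56 on array 2, with a mean of 2.09 ± 0.67 (SD, n = 2). Its direction was used to read the sign and is a description. CSN2, which encodes beta-casein, had 0.76 and 0.79, a mean of 0.77 ± 0.02 (SD, n = 2; adjusted p = 0.00506 by limma). Of the markers of other cells, 0 of 8 for adipocytes and 0 of 2 for blood were measured. For stroma 1 of 6 was measured, for smooth muscle and myoepithelium 2 of 6, for leukocytes 4 of 5 and for proliferating cells 2 of 4, and none of these passed by limma. At an unadjusted p of 0.05, 1 leukocyte marker (RAC2) and 1 of the proliferating cells (BIRC5) passed, both on the prepubertal side. PTPRC, the surface phosphatase of all leukocytes, had 0.10 and 0.06, and POSTN, or periostin, of stroma had -0.10 and -0.32. Of the endothelial markers 2 of 6 were measured, and 1, CD300LG, passed on the prepubertal side. The other, EMCN, lay near 0, at -0.0035 and -0.040. The share of these cell types in either gland was therefore not measured here.

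Across the 697 genes, 493 had the same sign on both arrays (70.7%). On the lactation side lay 259 of them (37.2%), and on the prepubertal side 234 (33.6%). Which side held more depended on the centring: without it, 535 genes had the same sign, 186 on the lactation side and 349 on the prepubertal side. The array pair that compared the reference with itself gave the same sign for 367 of 680 genes (54.0%). By limma 87 genes passed (12.5%), of which 70 were on the lactation side (10%) and 17 on the prepubertal side (2.44%). All 87 had the same sign on both arrays. At an unadjusted p of 0.05, 192 genes passed. With the spread taken from the arrays of the reference against itself, array 2 alone (without array 1) gave 52 passing genes and array 1 alone (without array 2) gave 22. Without the centring, 160 genes passed and 47.5% of them lay on the lactation side, against 80.5% of the 87. The array medians before centring were -0.0959 and -0.0997. The total degrees of freedom of the fit also differed, at 75.1 without the centring and 10.4 with it. What moved the count was not tested. All directions below are relative to the array medians.

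Gene values on array 1 and array 2 were correlated. Across genes, Pearson's r between them was 0.72 and Spearman's rho was 0.59 (697 genes of 1 array pair, which are not independent replicates). For the pair of arrays that hybridised the reference against itself they were 0.09 and 0.09 over 680 genes. Values spread more widely on array 2, where the SD over genes was 0.60, than on array 1, where it was 0.48. Of the 70 lactation-side genes that passed, 55 lay further from 0 on array 2, as did 12 of the 17 on the prepubertal side.

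**Figure D1:**
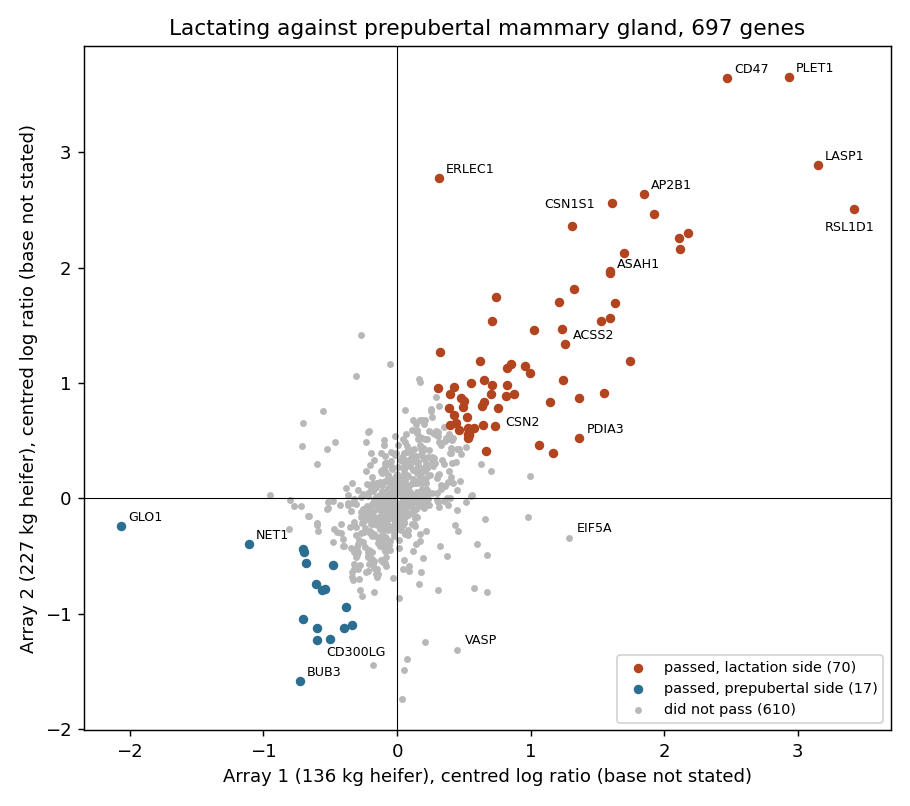
Gene values on array 1 (horizontal axis) and array 2 (vertical axis), as centred log ratios of unstated base, for 697 genes; red points passed on the lactation side (70), blue points passed on the prepubertal side (17) and grey points did not pass (610). The red points reach 3.42 on array 1 and 3.65 on array 2, whereas the blue points reach -2.07 on array 1 and -1.59 on array 2.

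The sides differed in how far the genes reached. On the lactation side 54 genes lay at least 0.5 log units from 0 on both arrays, 24 at least 1 unit and 7 at least 2 units. On the prepubertal side 9 genes lay at least 0.5 units from 0 on both arrays and 0 reached 1 unit. On the arrays of the reference against itself, 1 gene lay at least 0.5 units on the positive side, 3 lay as far on the negative side, and 0 reached 1 unit on either side. At the small size of 0.1 units the sides were closer, with 183 lactation-side and 134 prepubertal-side genes, against 67 positive and 76 negative genes on the arrays of the reference against itself. The lactation-side genes that passed had a median mean of 0.92 (range 0.52 to 3.29), and the prepubertal-side genes a median mean of -0.71 (range -1.16 to -0.53).

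**Figure D2:**
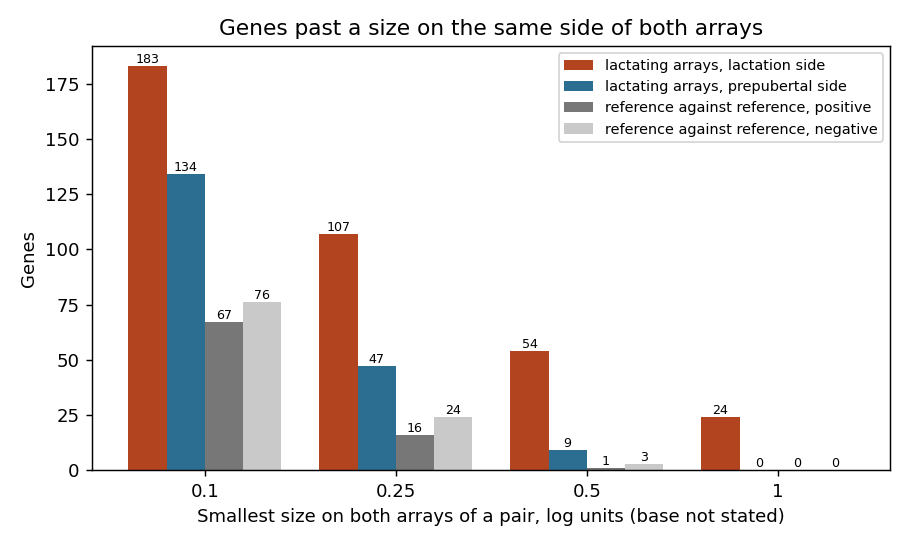
Number of genes (vertical axis) whose value lay on the same side of both arrays of a pair by at least the size on the horizontal axis (log units of unstated base). Red and blue bars are the lactating arrays (697 genes) and grey bars the reference against itself (680 genes); at 1 unit the counts are 24, 0, 0 and 0.

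Genes were also grouped into lists by role, and these were chosen with earlier results of these data known. The share of a list that passed is therefore a description. Milk protein and milk fat globule genes were the list with the highest median. Of 9 members, 3 passed on the lactation side (CSN1S1, CSN2 and PAEP), 0 passed on the prepubertal side, and the median mean was 0.41, against 0.00033 over all genes tested. On the lactation side 10% of all genes passed, and the place of CSN1S1 there was fixed by its use to read the sign. PAEP encodes beta-lactoglobulin, the main whey protein of cow's milk, and had 0.50 and 0.85 (mean 0.67 ± 0.25, SD, n = 2; adjusted p = 0.0168 by limma). Its separate clones did not read alike, with means of -0.14 and 1.08. LALBA, the alpha-lactalbumin subunit of lactose synthase, had 0.71 and 0.24, and BTN1A1, the butyrophilin of the milk fat globule membrane, had 0.26 and 0.31. LTF, which encodes lactoferrin, had 0.16 and 0.22. None of those 3 passed. Of the 9 members, 3 had opposite signs on the arrays. CSN1S2, for alpha-S2-casein, had -0.19 and 0.39, and CSN3, for kappa-casein, had 0.98 and -0.16. The mean of CSN3, at 0.41, was the list's median.

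Several genes of milk fat supply passed on the lactation side. ACSS2, which turns acetate into acetyl-CoA in the cytosol, had 1.26 and 1.34, a mean of 1.30 ± 0.05 (SD, n = 2; adjusted p = 0.000128 by limma). The 2 ACSS2 clones differed, with means of 2.41 and 0.18. CD36, a fatty acid transporter that is also a protein of the milk fat globule membrane, had 0.85 and 1.17 (mean 1.01 ± 0.22, SD, n = 2; adjusted p = 0.00128 by limma). GPAM, the mitochondrial acyltransferase that starts triacylglycerol synthesis, had 0.54 and 0.55 (adjusted p = 0.0331 by limma). In the whole list of fatty acid, acetate and glycerolipid enzymes, 3 of 13 tested genes passed on the lactation side, against 10% of all genes, 0 passed on the prepubertal side, against 2.44%, and the median mean was 0.03. The other members named here had values on both sides. ELOVL6, a fatty acid elongase, had 0.58 and -0.77. ACLY, which makes cytosolic acetyl-CoA from citrate, had 0.32 and -0.41, and the desaturase SCD had -0.60 and 0.30. The SCD clones did not read alike: 1 had -1.55 and 0.05, and the other had 0.35 and 0.47 on the lactation side. CPT2, a carnitine palmitoyltransferase of mitochondrial fatty acid oxidation, had 0.44 and 0.31 and did not pass (adjusted p = 0.124 by limma).

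Sphingolipid enzymes at several steps of 1 pathway lay on the lactation side. SPTLC1, a subunit of the serine palmitoyltransferase that starts sphingolipid synthesis, had 2.11 and 2.26, a mean of 2.18 ± 0.11 (SD, n = 2; adjusted p = 3.43e-06 by limma). CERS2, a ceramide synthase that uses very long acyl chains, had 0.64 and 0.64 (adjusted p = 0.0155 by limma). ASAH1, the lysosomal acid ceramidase that breaks ceramide down, had 1.59 and 1.96, a mean of 1.77 ± 0.26 (SD, n = 2; adjusted p = 1.93e-05 by limma). These were 3 of the 8 genes of the sphingolipid and lysosome list (37.5%, against 12.5% of all genes), whose median mean was 0.10 and of which 0 passed on the prepubertal side. Other lysosomal members read differently. LAMP2, a lysosomal membrane protein, had -0.12 and -0.53, and SCARB2, another, had -0.77 and -0.06. LIPA, the lysosomal acid lipase, had 0.06 and 0.16, and the hyaluronidase HYAL1 had 0.67 and -0.49. SERINC1, which has been described as aiding serine incorporation into membrane lipids and was on none of the lists, had 0.87 and 0.90 (adjusted p = 0.00215 by limma).

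Genes of translocation into the endoplasmic reticulum and of vesicle traffic that passed were all on the lactation side. They were 4 of 37 tested (10.8%), against 10% of all genes on that side and 12.5% on either side. EMC2, a subunit of the complex that inserts membrane proteins into the endoplasmic reticulum, had 2.12 and 2.17, a mean of 2.14 ± 0.03 (SD, n = 2; adjusted p = 3.43e-06 by limma). AP2B1, the beta subunit of the clathrin adaptor of endocytosis, had 1.85 and 2.64 (mean 2.24 ± 0.56, SD, n = 2; adjusted p = 1.72e-05 by limma). EXOC4, a subunit of the exocyst that tethers vesicles at the plasma membrane, had 1.06 and 0.46, and ARL6, a small GTPase that recruits the ciliary BBSome coat, had 0.43 and 0.96. The list's median mean was 0.04, with 16 genes on the lactation side of both arrays and 11 on the prepubertal side. AP3D1, a subunit of another adaptor, had -0.30 and -0.51 and did not pass. The SNARE STX12 had 0.20 and 0.43, the secretory granule GTPase RAB3D had 0.22 and 0.17, and neither passed. The RAB3D clones averaged -0.10 and 0.49. RAB18, a GTPase of the endoplasmic reticulum and lipid droplets, had 0.22 and -0.28.

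Some lactation-side genes in no list have roles in the endoplasmic reticulum or at membranes, and they are placed together here only by those roles. ERLEC1, a lectin of the degradation route for misfolded glycoproteins, had 0.31 and 2.78, a mean of 1.54 ± 1.75 (SD, n = 2; adjusted p = 0.0322 by limma). Its value therefore rested on array 2, where the spots read 2.64, 3.82 and 1.88. ESYT1, which tethers the endoplasmic reticulum to the plasma membrane, had 1.74 and 1.19. UFM1, a ubiquitin-like modifier that acts at the endoplasmic reticulum, had 1.36 and 0.87. LZTFL1, which regulates BBSome traffic to cilia, had 0.82 and 1.13, from clones that averaged 0.08 and 1.88. SFT2D2, of a family of vesicle transport proteins, had 0.31 and 0.96, and ENTPD4, a nucleoside diphosphatase of internal membranes, had 0.57 and 0.61. PIP5K1A, a kinase that makes the phosphoinositide needed for clathrin coats, had 0.48 and 0.87.

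Among chaperones, CCT5 and CCT4 are subunits of the ring chaperonin that folds actin and tubulin. CCT5 had 1.59 and 1.57 (mean 1.58 ± 0.02, SD, n = 2; adjusted p = 2.76e-05 by limma), and CCT4 had 0.65 and 1.02 (adjusted p = 0.00493 by limma). A further subunit of the same ring, TCP1, had -0.60 and -0.21 and did not pass (adjusted p = 0.126 by limma), so subunits of 1 complex were read on opposite sides, a difference that was not tested. PDIA3, a disulfide isomerase that works on new glycoproteins, had 1.36 and 0.52 (adjusted p = 0.00913 by limma). HSP90B1, the HSP90 of the endoplasmic reticulum, had -0.59 and -0.29 and did not pass (adjusted p = 0.0921 by limma). HSPA2, an HSP70 family chaperone, had 0.24 and 0.58, and ATF4, a transcription factor of the stress response that the list includes, had 0.13 and 0.13. In all 3 of 12 chaperone genes passed on the lactation side (25%, against 10% of all genes), 0 on the prepubertal side, and the median mean was 0.04.

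In glycosylation and sugar metabolism, 2 of 8 genes passed on the lactation side and 1 on the prepubertal side (37.5%, against 12.5% of all genes), and the median mean was 0.05. ST6GAL1, which adds terminal sialic acid to glycoproteins, had 1.63 and 1.69, a mean of 1.66 ± 0.04 (SD, n = 2; adjusted p = 1.93e-05 by limma). PDHA1, the catalytic subunit of pyruvate dehydrogenase, had 0.82 and 0.99 (adjusted p = 0.0021 by limma), whereas PDHX, a binding protein of the same complex, had 0.05 and 0.11. B4GALT4, a galactosyltransferase related to the lactose synthase enzyme, lay on the other side, at -0.68 and -0.56 (adjusted p = 0.0198 by limma). MGAT4A, which branches N-glycans, had -0.09 and -0.51, and PGM1, a phosphoglucomutase, had 0.14 and 0.26. ALDOC, an aldolase of glycolysis, had -0.13 and -0.23. These last 3 did not pass.

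Amino acid and sulfur metabolism held some of the largest lactation-side values, with 3 of 10 genes passing there (30%, against 10% of all genes) and 0 on the prepubertal side (median mean 0.02). CDO1, which commits cysteine to taurine and sulfate, had 1.92 and 2.47, a mean of 2.20 ± 0.39 (SD, n = 2; adjusted p = 8.17e-06 by limma). PCMTD2, a relative of the methyltransferase that repairs aged aspartates, had 2.17 and 2.30 (mean 2.24 ± 0.09, SD, n = 2; adjusted p = 3.43e-06 by limma). ALDH7A1, a dehydrogenase of lysine breakdown, had 1.00 and 1.09 (adjusted p = 0.000739 by limma). The other members lay near 0 or on the prepubertal side. MTHFD2, a mitochondrial folate enzyme, had -0.32 and -0.57 (adjusted p = 0.083 by limma), MAT2A, which makes S-adenosylmethionine, had -0.24 and -0.25, and ornithine aminotransferase, OAT, had -0.14 and -0.38. MOCS2, an enzyme of the molybdenum cofactor that sulfite oxidase needs, was outside the lists and had 1.24 and 1.47 (adjusted p = 0.000124 by limma).

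**Figure D3:**
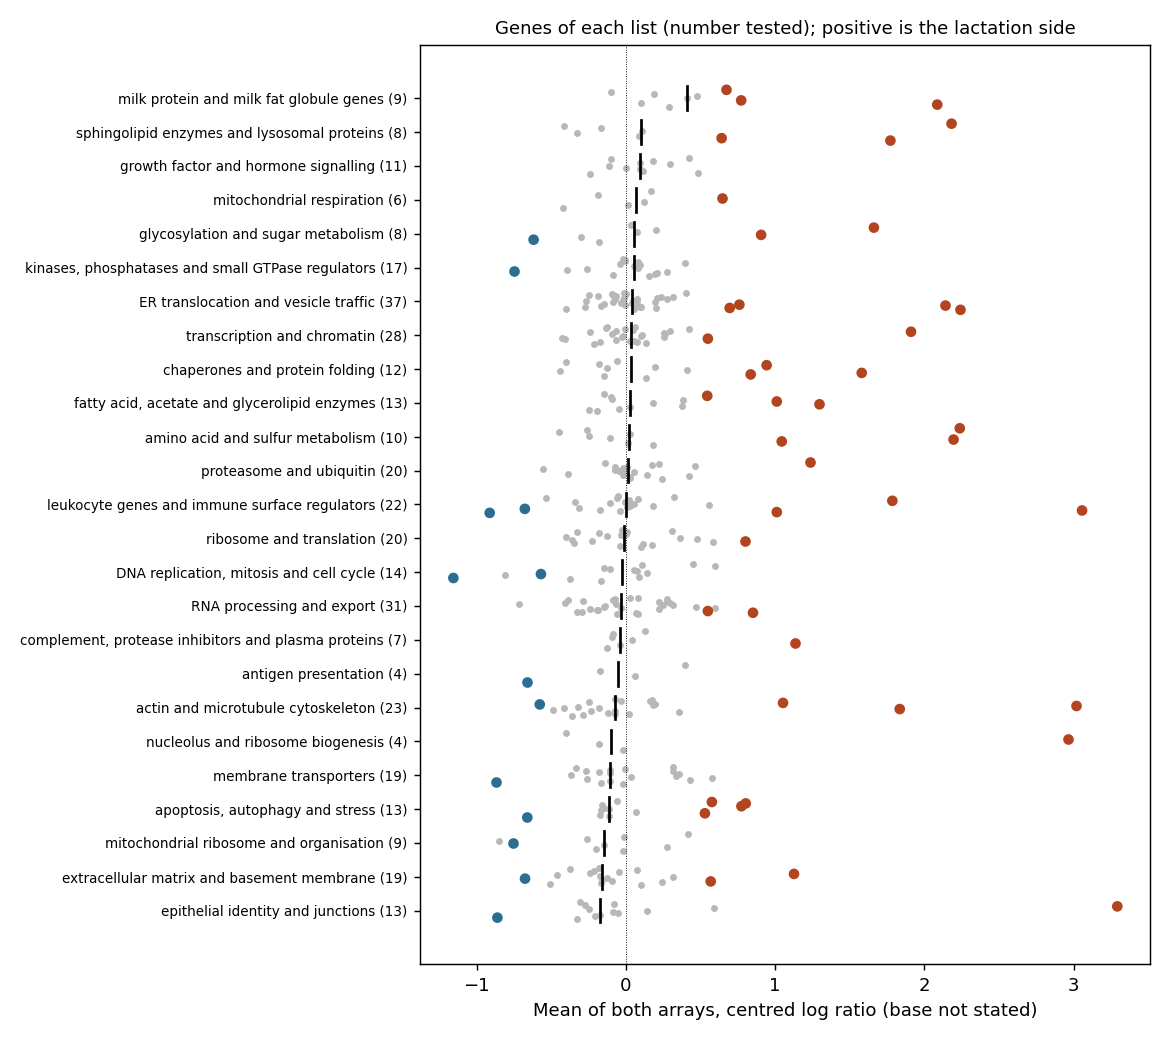
Mean of both arrays (horizontal axis, centred log ratio of unstated base) for the genes of each list, with the number tested in brackets; red points passed on the lactation side, blue points on the prepubertal side, grey points did not pass, and the bar is the list's median. The milk list has the highest median (0.41), and the epithelial list the lowest of those drawn (-0.17).

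The gene with the highest mean was PLET1, a surface protein that marks epithelial progenitors in mouse. It had 2.93 and 3.65, a mean of 3.29 ± 0.51 (SD, n = 2; adjusted p = 1.34e-06 by limma). The rest of its list did not share this value. Of 13 tested genes of epithelial identity and junctions, 9 lay on the prepubertal side of both arrays and 2 on the lactation side, where all genes had 33.6% on the prepubertal and 37.2% on the lactation side. The median mean was -0.17, and 1 gene passed on each side (15.4%, against 12.5% of all genes). The gene that passed on the prepubertal side was ANXA8L1, an annexin, at -0.50 and -1.22 (adjusted p = 0.0106 by limma). SPINT1, an inhibitor of epithelial surface proteases, had -0.31 and -0.25, and CLDN8, a tight junction claudin, had -0.19 and -0.22. PKP4, a junctional plakophilin, had 0.17 and 1.01 (adjusted p = 0.078 by limma). MUC1, the mucin of the luminal surface, had 0.00081 and -0.20.

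Of 23 cytoskeletal genes 3 passed on the lactation side and 1 on the prepubertal side (17.4%, against 12.5% of all genes), with a median mean of -0.07. LASP1, an actin-binding LIM protein, had 3.15 and 2.89, a mean of 3.02 ± 0.18 (SD, n = 2), and the smallest adjusted p of all genes (8.91e-07 by limma). CLIP2, which binds growing microtubule ends, had 1.31 and 2.36 (adjusted p = 0.0002 by limma). MSN, or moesin, which ties actin to the plasma membrane, had 0.96 and 1.15 (adjusted p = 0.000747 by limma). MAP7, a microtubule protein of epithelial cells, lay on the prepubertal side at -0.70 and -0.46 (adjusted p = 0.0303 by limma). Its only spots with a value on array 2 read -0.84 and -0.08. CAPZA2, an actin capping subunit, had -0.34 and -0.64 (adjusted p = 0.066 by limma), and beta-actin, ACTB, had -0.42 and -0.30. Neither passed. Among smooth muscle and myoepithelial genes, 0 of 3 had the same sign on both arrays: MYH11 had 0.09 and -0.58, ACTG2 0.05 and -0.61, and TPM1 0.38 and -0.06.

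Of 19 matrix genes tested, 2 passed on the lactation side and 1 on the prepubertal side (15.8%, near the 12.5% of all genes), and the median mean was -0.16. MFAP4, a protein of elastic fibres, had 0.71 and 1.54 (adjusted p = 0.0028 by limma), and COL5A2, a chain of fibrillar type V collagen, had 0.53 and 0.61 (adjusted p = 0.0289 by limma). ECM2, a matrix protein known from fat and female reproductive tissue, had -0.61 and -0.75 (adjusted p = 0.0122 by limma). ASPN, a small leucine-rich proteoglycan, had -0.34 and -0.68 (adjusted p = 0.059 by limma), TNC, or tenascin C, had -0.29 and -0.46, and neither passed. COL6A2, a chain of type VI collagen, had 0.19 and -0.51.

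Among genes of leukocytes and immune surface regulators, 3 of 22 passed on the lactation side and 2 on the prepubertal side, against 10% and 2.44% of all genes (median mean -0.00095). CD47, a surface protein that restrains phagocytosis, had 2.47 and 3.64, a mean of 3.06 ± 0.83 (SD, n = 2; adjusted p = 8.17e-06 by limma). LGALS9, the lectin galectin 9, had 1.60 and 1.98 (adjusted p = 1.93e-05 by limma), and CD36, given above, is also on this list. LGALS9 had -1.98 on the second array of the reference against itself and CD47 had -1.14 on the first, so these clones were far from 0 on arrays with the same RNA in both channels. CD300LG, a receptor of capillary endothelium, had -0.60 and -1.23 (adjusted p = 0.00555 by limma), and CD99, an adhesion protein of leukocytes and endothelium, had -0.56 and -0.79 (adjusted p = 0.0135 by limma). RAC2, a GTPase of blood cells, had -0.81 and -0.26 and did not pass (adjusted p = 0.0675 by limma).

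For antigen presentation 1 of 4 genes passed (25%, against 12.5% of all genes). BOLA, a class I major histocompatibility gene of cattle, had -0.54 and -0.79 (adjusted p = 0.0155 by limma). It belongs to a family of near-identical copies, which cDNA clones may not separate. TAP1, which carries peptides to class I molecules, had 0.33 and 0.47 and did not pass (adjusted p = 0.109 by limma), and CD74, the class II invariant chain, had -0.26 and -0.09. In the complement and plasma protein list, 1 of 7 passed (14.3%). C3, the central complement protein, averaged 1.24 and 1.03, but it was read on 2 spots per array, at -1.28 and 3.76 on array 1 and at 0.41 and 1.64 on array 2. PTAFR, the receptor for platelet-activating factor, was outside the lists and had 0.67 and 0.41 (adjusted p = 0.0393 by limma).

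Of 14 cell division genes 2 passed (14.3%, near the 12.5% of all genes), both on the prepubertal side, where 2.44% of all genes passed. BUB3, a protein of the mitotic spindle checkpoint, had -0.73 and -1.59, a mean of -1.16 ± 0.61 (SD, n = 2; adjusted p = 0.0028 by limma). Its spots were close together, at -0.76, -0.70 and -0.73 on array 1 and at -1.57, -1.64 and -1.55 on array 2. KIF22, a kinesin that moves chromosomes, had -0.70 and -0.44 (adjusted p = 0.0322 by limma). CETN2, or centrin 2 of the centrosome, had -0.18 and -1.44 (adjusted p = 0.0567 by limma), and BIRC5, or survivin, a chromosomal passenger protein, had -0.18 and -0.57. Neither passed. RPA1, which binds single-stranded DNA, had 0.37 and 0.53 on the other side (adjusted p = 0.078 by limma). Over the list 7 genes lay on the prepubertal side of both arrays and 3 on the lactation side, with a median mean of -0.03.

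Of 20 translation genes 1 passed (5%), below the 12.5% of all genes, and the median mean was -0.01. EIF4B, which stimulates the helicase that unwinds mRNA for the ribosome, had 0.32 and 1.27 (adjusted p = 0.0303 by limma). HARS1, the histidyl-tRNA synthetase, had -0.39 and -0.41, and EIF4G1, the scaffold of the cap-binding complex, had -0.30 and -0.42. EIF4G1 had -0.63 and -1.02 on the arrays of the reference against itself, further from 0 than on the lactating arrays. RSL1D1, a nucleolar protein of ribosome assembly, had 3.42 and 2.51, a mean of 2.96 ± 0.64 (SD, n = 2; adjusted p = 3.43e-06 by limma). The other genes of ribosome biogenesis did not pass: WDR12 had -0.66 and -0.15, POLR1E, a subunit of RNA polymerase I, had -0.17 and -0.19, and nucleolin, NCL, had 0.13 and -0.17.

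In the mitochondrial lists 1 of 6 respiration genes passed (16.7%) and 1 of 9 genes of the mitochondrial ribosome and organisation (11.1%), against 12.5% of all genes. OGDH, a subunit of the 2-oxoglutarate dehydrogenase of the citric acid cycle, had 0.49 and 0.79 (adjusted p = 0.0201 by limma), from spots between -0.40 and 1.13 on array 1 and between -0.91 and 2.60 on array 2. MRPS35, a protein of the small mitochondrial ribosomal subunit, had -0.40 and -1.12 (adjusted p = 0.0204 by limma). MRPL30 of the large subunit had -0.18 and -0.22, and MRPL9 had 0.42 and 0.14. Neither passed. COA4, a factor for cytochrome c oxidase assembly, had -0.46 and 0.49.

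Apoptosis, autophagy and stress genes had 4 of 13 passing on the lactation side and 1 on the prepubertal side (38.5%, against 12.5% of all genes), although the list's median mean was -0.11. PDCD4, a repressor of translation initiation, had 0.70 and 0.91 (adjusted p = 0.00481 by limma), and NFE2L1, a transcription factor for proteasome genes, had 0.55 and 1.00. SQSTM1, the autophagy receptor p62, had 0.43 and 0.73, and BIRC6, a large inhibitor of apoptosis, had 0.47 and 0.59. ATG12, a ubiquitin-like protein of autophagosome formation, lay at -0.38 and -0.94, and it had -1.14 on the first array of the reference against itself. Its spots on lactating array 2 read -0.18, -0.40 and -2.23. With the spot median ATG12 had a mean of -0.39 and did not pass (adjusted p = 0.109 by limma). The 8 members that did not pass included NFE2L2, a regulator of the oxidative stress response, at -0.12 and -0.21, and CASP8, an initiator caspase, at -0.22 and -0.11. In the proteasome and ubiquitin list, 1 of 20 passed (5%), namely the deubiquitinase USP4, at 1.55 and 0.91 (adjusted p = 0.000803 by limma). CACYBP, which links calcium signals to ubiquitin ligases, was outside the lists and had 1.53 and 1.54.

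Of 28 transcription and chromatin genes 2 passed (7.14%), and of 31 RNA processing genes 2 passed (6.45%), all on the lactation side, where 10% of all genes passed. SSBP2, a cofactor of LIM-domain transcription factors, had 1.70 and 2.13, a mean of 1.91 ± 0.30 (SD, n = 2; adjusted p = 1.72e-05 by limma). The histone H2BC21 had 0.44 and 0.66, and histone genes are near-identical copies that clones may not separate. HNRNPH1 and HNRNPM, nuclear proteins that steer splicing, had 0.82 and 0.89 in the case of HNRNPH1 and 0.54 and 0.56 in that of HNRNPM. PTBP1, another splicing regulator, had 0.39 and 0.56 and did not pass (adjusted p = 0.066 by limma). Its clones averaged 0.89 and 0.05. KLF10, a transcription factor induced by TGF-beta, had -0.48 and -0.38 (adjusted p = 0.0879 by limma). Outside the lists, ERCC3, a helicase of transcription factor IIH, had 1.21 and 1.71, PABPN1, which binds poly(A) tails, had 0.62 and 1.19, and EFTUD2, a GTPase of the spliceosome, had 1.16 and 0.40. The spots of 1 PABPN1 clone read -0.29, -0.30 and 2.38 on array 1 and 0.06, 0.11 and 2.36 on array 2. Its other clone averaged 0.65 and 1.54.

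Growth factor and hormone signalling genes gave 0 passing genes by limma among 11 tested (2 at an unadjusted p of 0.05), although 6 lay on the lactation side of both arrays and 3 on the prepubertal side (median mean 0.10). FGFBP1, a carrier that releases fibroblast growth factors from the matrix, came closest, at 0.52 and 0.45 (adjusted p = 0.0583 by limma). TGFBR2, a receptor for TGF-beta, had 0.30 and 0.55 (adjusted p = 0.0994 by limma), and PDGFA had 0.40 and 0.19. NET1, an exchange factor for the GTPase RhoA, was the 1 of 17 kinase, phosphatase and GTPase regulators that passed (5.88%), at -1.11 and -0.40. Of 19 membrane transporters 1 passed (5.26%), MFSD14B, of the major facilitator superfamily, at -0.70 and -1.04 (adjusted p = 0.00355 by limma). SLC22A4, an organic cation carrier, had 0.36 and 0.50 (adjusted p = 0.0879 by limma), and SLC28A1, a nucleoside carrier, had -0.27 and 1.42.

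The remaining genes on the prepubertal side were outside the lists. GLO1, which detoxifies methylglyoxal, had -2.07 and -0.24, a mean of -1.15 ± 1.29 (SD, n = 2; adjusted p = 0.038 by limma). Its value rested on array 1, with spots at -1.95, -2.94 and -1.30, whereas the spots of array 2 read -1.17 and 0.69. NXPE3, of the neurexophilin-like family, had -0.60 and -1.12 (mean -0.86 ± 0.37, SD, n = 2; adjusted p = 0.00592 by limma), with the spots of each array close together. BRWD1, a bromodomain protein, had -0.34 and -1.09, and ALKBH1, a nucleic acid demethylase, had -0.48 and -0.58. Of the 322 tested genes in no list, 28 passed on the lactation side and 4 on the prepubertal side (9.94%), against 12.5% of all genes.

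Further lactation-side genes outside the lists had the following values. KCTD20, a protein that binds the kinase Akt, had 1.32 and 1.82, from clones that averaged 2.83 and 0.54. SGCE, or epsilon-sarcoglycan, had 0.74 and 1.75, and the uncharacterised LOC107132045 had 1.02 and 1.46. PCYOX1, which breaks down prenylated cysteines, had 0.65 and 0.83. The mitochondrial FAM136A had 1.14 and 0.84, and CASKIN2 had 0.71 and 0.98. SLF2, which brings a repair complex to DNA, had 0.64 and 0.80, and AKTIP, which supports telomere replication, had 0.53 and 0.56. SYNPR, a vesicle membrane protein, had 0.53 and 0.71. ITFG2, part of a nutrient-sensing complex, had 0.39 and 0.78, and FAM114A2 had 0.40 and 0.64. The endothelial adhesion receptor ADGRL4 had 0.73 and 0.63, but 1.25 on the second array of the reference against itself. TCAF1, which regulates a cation channel, averaged 0.53 and 0.53 from spots that lay between -0.26 and 1.63 on array 1 and between -0.61 and 2.32 on array 2.

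The spots behind these averages mostly read the same side. For 74 of the 87 genes that passed, every spot on both arrays lay on the gene's side, 59 on the lactation side and 15 on the prepubertal side. For 71 of the 87, exactly 3 spots gave a value on each array. Others had more spots, among them CSN1S1, CSN2 and PAEP, or fewer on an array, among them C3 and GLO1. Separate clones of 1 gene often differed. Of 71 genes with more than 1 clone sequence, 33 had clones on both sides of 0. Of the 87 that passed, 9 had more than 1, and in 6 of those the clones lay at least 1 unit apart (ACSS2, KCTD20, LZTFL1, NFE2L1, HNRNPM and PAEP). The NFE2L1 clones averaged 1.71 and -0.16, and those of HNRNPM 1.12 and -0.03. Which clone reads the gene was not tested.

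**Figure D4:**
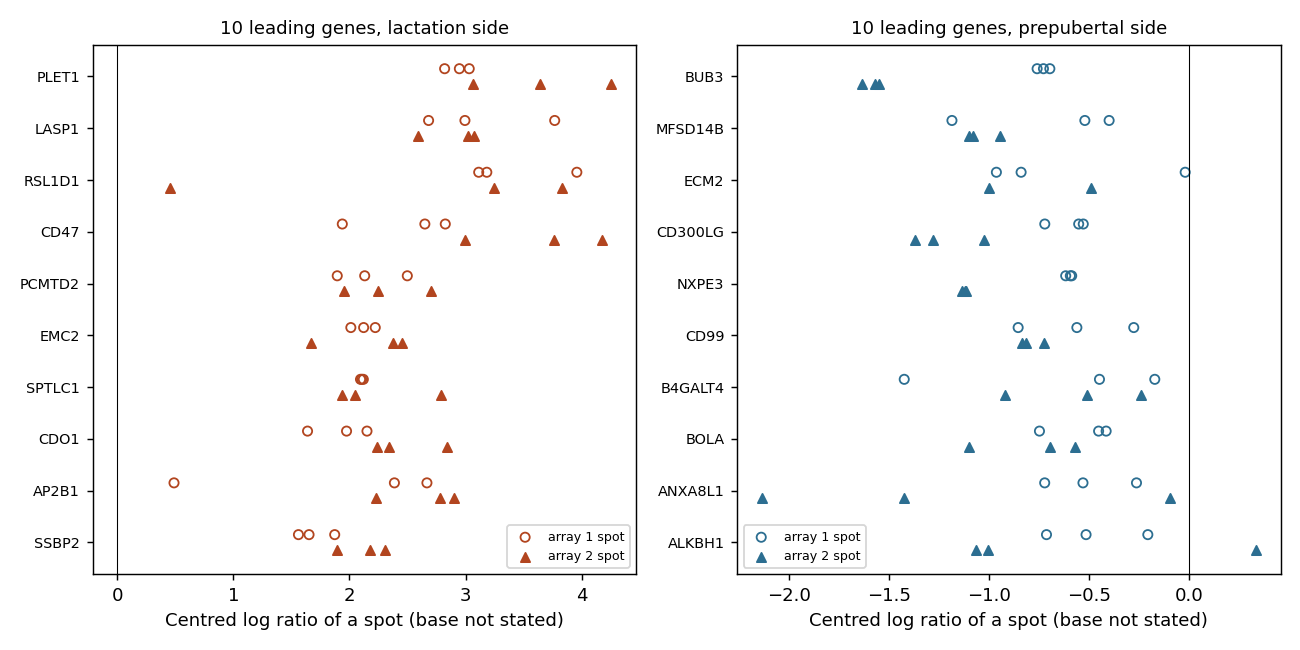
Values of single spots (horizontal axis, centred log ratio of unstated base) for the 10 genes on each side with the largest smaller value of the 2 arrays; open circles are array 1 and triangles array 2. All spots of the lactation-side genes lie above 0, the lowest being 0.46 for RSL1D1 on array 2, whereas ALKBH1 has 1 spot at 0.34.

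Not every gene was read alike against both heifers. Opposite signs were found for 204 genes. The 10 that lay furthest from 0 on both arrays were CCPG1, ABCE1, ELOVL6, ADAM9, HYAL1, COA4, A2M, VASP, ASF1A and PGRMC1. CCPG1, a receptor for autophagy of the endoplasmic reticulum, had 0.68 on array 1 and -0.81 on array 2, a difference of 1.49. VASP, which promotes actin filament growth, had 0.45 and -1.31, a difference of 1.76, with spot SDs of 0.05 and 0.08. ABCE1, which recycles ribosomes, had -0.70 and 0.66, and the protease inhibitor A2M had -0.71 and 0.46. ADAM9, a membrane protease, had -0.55 and 0.76, but it also had -1.12 and -0.997 on the arrays of the reference against itself. Heifer weight and array cannot be told apart here, and with 1 array for each heifer these differences have no test. Near 0 the sign means little. SULF2, a heparan sulfatase, had 0.14 and 0.00046 and is counted with the same-sign genes, whereas ARL6IP5, a membrane protein of the endoplasmic reticulum, had 0.21 and -0.0015 and is not. The 406 genes with the same sign that did not pass (189 on the lactation side and 217 on the prepubertal side) had a median size of 0.22.

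Set against the arrays of the reference against itself, far fewer genes stood out. On those arrays 0 of 680 genes passed by limma (52 at an unadjusted p of 0.05). In a contrast of the lactating arrays with them, 12 of 678 genes passed (1.77%), all on the lactation side, and 115 did at an unadjusted p of 0.05. Of the 87 genes, 4, among them CD47, lacked a value on an array of the reference against itself. Those 4 were not tested in this contrast or in the fit with shared spread given below. The 12 were PLET1, LASP1, RSL1D1, AP2B1, PCMTD2, CDO1, SPTLC1, EMC2, SSBP2, ST6GAL1, CACYBP and ACSS2. Each lay at least 1.26 units from 0 on both lactating arrays, and their adjusted p by limma lay between 0.0102 and 0.0274. CSN1S1 (adjusted p = 0.0666 by limma) and CSN2 (adjusted p = 0.0798) did not pass in it. This count depended on the arrays used: it was 67 without the first array of the reference against itself, 39 without the second, 43 without lactating array 1 and 18 without lactating array 2. With only the spread shared between both pairs of arrays, and the lactating mean tested against 0, 36 of 678 genes passed (5.31%), of which 34 were on the lactation side (5.01%) and 2 on the prepubertal side (0.295%). Of the 87 genes, 6 had a value of at least 1 in size on an array of the reference against itself.

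On the remaining gland arrays the 87 genes had medians near 0. Signs there are those of the deposited ratio, since their direction is not settled. On the array of prepubertal gland and BovMac, the lactation-side genes had a median of -0.02 (33 of 70 positive) and the prepubertal-side genes 0.07 (11 of 17 positive), against 0.01 over all genes tested (379 of 697 positive). Single genes were spread widely there, between -1.01 and 0.84 on the lactation side and between -0.37 and 0.44 on the prepubertal side, against -1.25 to 1.10 over all genes tested. On the array of prepubertal and postpubertal gland the medians were 0.04 for lactation-side and -0.01 for prepubertal-side genes, against 0.01 over all genes. On that array the genes that passed lay between -0.51 and 0.39 (lactation side) and between -0.47 and 0.27 (prepubertal side), against -0.72 to 0.88 over all genes tested.

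**Figure D5:**
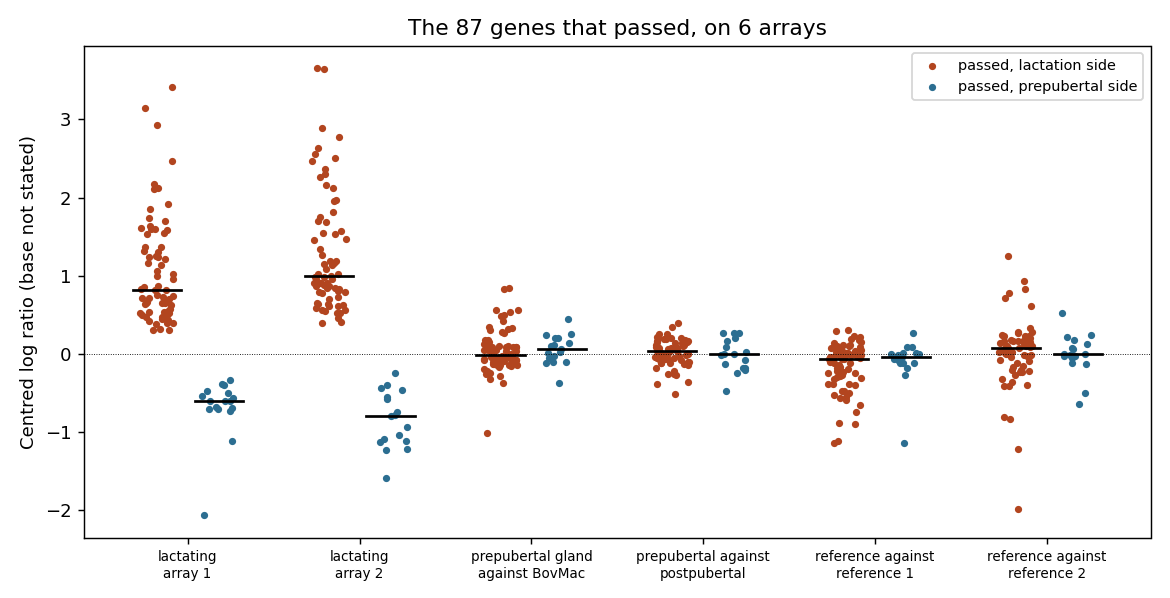
Values (vertical axis, centred log ratio of unstated base) of the 70 lactation-side genes (red) and 17 prepubertal-side genes (blue) that passed, on 6 arrays; black bars are medians. The colours separate on the lactating arrays, whose values chose the genes, and overlap on the other 4 arrays, where the medians lie between -0.07 and 0.08.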

How the data were processed

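Total RNA was compared on 13 two-colour cDNA arrays, of which 2 set lactating against prepubertal gland. The deposited value is 1 log ratio per spot, of unstated base. How the authors corrected background and normalized, and the dyes, is not given in the sources used here, and spot brightness was not used. Per the deposited platform annotation, 2538 of 3888 spots named 1 gene, 30 several and 1320 none. Of 706 genes, 703 were matched by gene identifier to RefSeq (assembly ARS-UCD2.0), and 0 symbols changed.

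Exact 0 (137 spots on lactating array 1 and 199 on array 2) was treated as missing, each array was centred on its median over spots, and spots were averaged for each gene with at least 2 values. The mean of both arrays was tested against 0 with limma 3.58.1 in R 4.3.3 (lmFit, eBayes, two-sided, Benjamini-Hochberg over all genes at 0.05). The test had 10.4 total degrees of freedom, of which 9.38 came from the spread of all genes and the rest from the gene's own 2 arrays. The same test was run on the pair of arrays of the reference against itself, and a contrast of both pairs was fitted. The fit was tested on simulated data with independent noise on each array. Those data held no dye bias and no differences between clones, so they could not test either. Tables and plots used Python 3.11.15, numpy 2.4.6, pandas 2.3.3 and matplotlib 3.10.9. The number of arrays limits the precision.

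Genes and the 31 lists (2 with no gene on the array: adipocytes and blood) were chosen with earlier results of these data known. Named were, for each list, the genes that passed and the 4 others furthest from 0 on both arrays, or some of these; up to 40 genes a side outside the lists; the 10 genes of opposite sign furthest from 0 on both arrays; the 5 genes nearest the same-sign rule on each side; and the 10 genes a side furthest from 0 on both arrays. A planned search of promoters for a motif was not run. Alternatives changed the centring, exact 0, spot minimum, spot average, array scale, clone average, spread, test and arrays.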

Additional observations from a re-analysis of the deposited data

Results flagged for a closer look

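Spots with no gene in the annotation were used in none of the comparisons, yet some read far from 0 on the lactating arrays. Of 440 clones without a gene, 385 had values on both lactating arrays, and 9 of them lay at least 1 log unit on the lactation side of both. The one furthest out lay at least 2.89 units from 0 on both. On the prepubertal side 0 clones reached 1 unit on both arrays. On the arrays of the reference against itself, 0 of 359 such clones reached 1 unit on both arrays in either direction. No gene can be named for these clones from the sources used here.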

How the results depend on the processing

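Against 87 genes that passed (70 lactation, 17 prepubertal), 160 passed without centring (84 prepubertal), 30 with exact 0 kept (30 and 0), 30 with arrays scaled to the same median absolute deviation (29 and 1), 36 with the spread shared with the arrays of the reference against itself (34 and 2) and 12 in the contrast with them (12 and 0). Leaving out a lactating array gave 22 to 52 genes, 20 to 39 on the lactation side and 2 to 13 on the prepubertal side. All 87 were among the 160, and the 30, 30, 36 and 12 were all among the 87. The fits that used the arrays of the reference against itself could not test 4 of the 87, which lacked a value there. The contrast count of 12 became 22 with at least 3 spots, 21 with scaled arrays, 18 to 43 without a lactating array, and 67 or 39 without an array of the reference against itself. On those arrays 1 gene passed in place of 0 when 1 spot sufficed. The list medians also depended on the processing, where a move means at least the SD between the list's medians on the 2 arrays. Without centring 18 list medians moved and 5 did not, and in the contrast 12 moved and 11 did not. The cause of these changes was not tested.

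Of the genes that passed, ADGRL4 turned over in the contrast (-0.0044). Genes that had not passed also turned over there: ACADS 0.13, ALDOC 0.0241, EIF2B2 0.18, EIF4G1 0.46, FGG -0.0498, GLUL 0.10, IDI1 -0.19, ITGA6 -0.23, KRT7 0.20, MAPRE1 -0.0010, MFSD1 0.18, NFE2L2 0.11, S100B 0.0541, SDHD 0.27, SULF2 -0.0033 and TAF13 0.0700. Without centring, FGG (-0.0594), HPRT1 (-0.0459), PDHX (-0.0213) and SULF2 (-0.0283) turned over, and with the spot median EMCN did (0.0101). Each array is itself a ratio between lactating and prepubertal gland, so the test of the mean ratio against 0 was already paired within each array. The labels give the lactating arrays no replicate numbers. Signal over background was not used, so dim spots could not be set apart.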
